A study of Mus musculus with 6 samples.

Results

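The genes that make and recycle tetrahydrobiopterin were compared between mouse neurospheres grown with norepinephrine (N) and with potassium chloride (K). The family was listed by symbol as Gch1, Pts, Spr, Gchfr, Pcbd1, Qdpr and Pcbd2, and 7 of 7 members had a transcript cluster of their own, among 19937 genes with such a cluster. Each member had 1 cluster, so no choice between clusters was needed. The family was chosen by the N minus K difference of Pcbd1, which was already known to be among the largest on these arrays, and the other members were taken for their place in the pathway. The differences of its members between N and K are therefore given as a description, and a count of members past a threshold supports nothing.

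Neurospheres are floating colonies that neural precursor cells form in culture. They were grown from minced hippocampus of adult male C57BL/6J mice, 8 to 12 weeks old, in medium with EGF and bFGF, and collected on day 14. The N cultures contained 10 µM norepinephrine and the K cultures 15 mM potassium chloride, and 3 biological replicates of each, called small neurospheres in the sample labels, were measured on Affymetrix gene arrays that cover whole transcripts. The labels do not state whether replicates came from separate animals or pools, so the p-values speak only for these samples. They come from limma, which weighs each difference against the gene's spread between arrays, moderated toward the spread over all genes. No untreated culture is among the arrays, and every difference below is N relative to K. Values are log2 values from robust multi-array average (RMA) processing, in which 1 unit is a doubling of signal, and a level on this scale can be compared between arrays but not between genes. Dim below means only a low signal beside other clusters. It depends in part on the probes, and does not show that a transcript or cell type is absent. The 6 array medians lay between 6.30 and 6.40. Of the 6 arrays, K replicate 3 was the least like the others of its treatment (mean r = 0.948 across clusters). For K replicate 1 and K replicate 2 the mean correlation was higher with N than with the rest of K. The precursor marker Sox2 averaged 10.15 ± 0.26 with N and 9.90 ± 0.27 with K (SD, n = 3 arrays each), while the neuroblast marker Dcx was dim in both, at 5.44 ± 0.05 and 5.51 ± 0.11, against a median of 6.34 over all clusters. Other markers went differently. The neuron marker Map2 was bright, at 10.84 ± 0.05 with N and 11.17 ± 0.07 with K. The precursor marker Nes was lower with N, at 8.24 ± 0.20 against 8.76 ± 0.23.

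Tetrahydrobiopterin is the cofactor of the hydroxylases that make the precursors of dopamine, norepinephrine and serotonin, of the nitric oxide synthases and of alkylglycerol monooxygenase. GTP cyclohydrolase (Gch1) starts its synthesis from GTP and is usually the limiting enzyme, 6-pyruvoyl-tetrahydropterin synthase (Pts) and sepiapterin reductase (Spr) complete it, and the feedback regulator Gchfr binds the cyclohydrolase. After each hydroxylation the used cofactor is dehydrated by pterin carbinolamine dehydratase (Pcbd1, or its paralogue Pcbd2) and reduced again by dihydropteridine reductase (Qdpr).

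The promoters of the members with the highest and the next highest log2 fold change (log2FC), Pcbd1 and Gch1, are printed here from RefSeq (GRCm38.p6), because these are the members whose N and K arrays did not overlap. Each runs from 250 bases before the gene's start to 50 bases after it, 5′ to 3′ on the gene's strand. Capitals mark matches on either strand to TGACG, a part of the cAMP response element TGACGTCA, and to CCAAT.
Pcbd1, chr10:61089081-61089380, plus strand: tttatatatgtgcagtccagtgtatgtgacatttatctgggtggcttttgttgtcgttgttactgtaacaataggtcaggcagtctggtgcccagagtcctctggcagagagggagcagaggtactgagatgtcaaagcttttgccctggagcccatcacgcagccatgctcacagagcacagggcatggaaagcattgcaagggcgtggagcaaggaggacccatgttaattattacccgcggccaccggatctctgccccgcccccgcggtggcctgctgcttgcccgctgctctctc
Gch1, chr14:47189364-47189663, minus strand: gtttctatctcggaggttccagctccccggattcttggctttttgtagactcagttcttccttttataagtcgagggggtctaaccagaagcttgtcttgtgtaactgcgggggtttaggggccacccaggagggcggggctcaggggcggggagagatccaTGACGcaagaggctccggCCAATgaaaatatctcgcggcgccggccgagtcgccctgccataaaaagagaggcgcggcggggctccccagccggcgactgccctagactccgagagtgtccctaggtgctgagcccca
The Pcbd1 promoter held no match to these motifs. The Gch1 promoter held TGACG starting 88 bases and CCAAT starting 70 bases before the gene's start, on the gene's strand. TGACG was found in 20.8% and CCAAT in 37.4% of the 32851 promoters of this length in the table. The full element TGACGTCA, which contains TGACG, was found in 1.79% of all promoters and in 0 of the 7 members. Outside the printed pair, Pcbd2 held TGACG, Qdpr and Gchfr held CCAAT, and Pts and Spr held none of the motifs. A match describes the sequence and is not evidence of a bound site.

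Gch1, the entry enzyme, was higher with N on every array, although its cluster was dim. It read 5.95, 5.49 and 6.10 on N replicates 1, 2 and 3 and 4.93, 4.68 and 4.77 on K replicates 1, 2 and 3. The lowest N array lay above the highest K array, and the 3 K arrays lay closer together than the 3 N arrays. The means were 5.85 ± 0.31 with N and 4.79 ± 0.13 with K (SD, n = 3 each), a log2FC of 1.05 (standard error 0.17, 95% interval 0.66 to 1.45), or 2.08-fold. In the limma fit over all 19937 genes it ranked 66th by log2FC and did not pass (adjusted p = 0.0885). Of all clusters, 27.5% were dimmer than that of Gch1. Leaving out single arrays gave a log2FC between 0.93 and 1.23.

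Pts, which acts on the product of Gch1, had a higher mean with N, with overlapping arrays. It read 9.23, 9.24 and 8.77 on the N arrays and 8.36, 8.89 and 7.66 on the K arrays, replicates 1 to 3. K replicate 2 lay above N replicate 3, and K replicate 3 stood well below the other arrays. The log2FC was 0.77 (standard error 0.29, 95% interval 0.12 to 1.43), and Pts did not pass in limma (adjusted p = 0.501). Without K replicate 3 the log2FC was 0.45.

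Spr, the reductase of the final step, showed no difference beyond its spread. It read 7.33, 7.35 and 7.14 on the N arrays and 7.46, 6.99 and 7.40 on the K arrays. The N values lay inside the range of the K values. The log2FC was -0.01 (95% interval -0.36 to 0.34), an interval that leaves room for changes of about that size either way, and the sign turned when arrays were centred on their medians (0.018). RefSeq lists a pseudogene, Spr-ps1, close to Spr on the same chromosome, and whether it adds to this cluster was not tested.

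Gchfr, whose protein mediates feedback inhibition of GTP cyclohydrolase, did not pass either (adjusted p = 0.861 from limma). It read 6.87, 6.77 and 7.23 on the N arrays against 7.04, 7.04 and 7.16 on the K arrays. N replicate 3 was the highest of the 6 arrays and N replicate 2 the lowest. The log2FC was -0.13 (standard error 0.15, 95% interval -0.46 to 0.21).

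**Figure D1:**
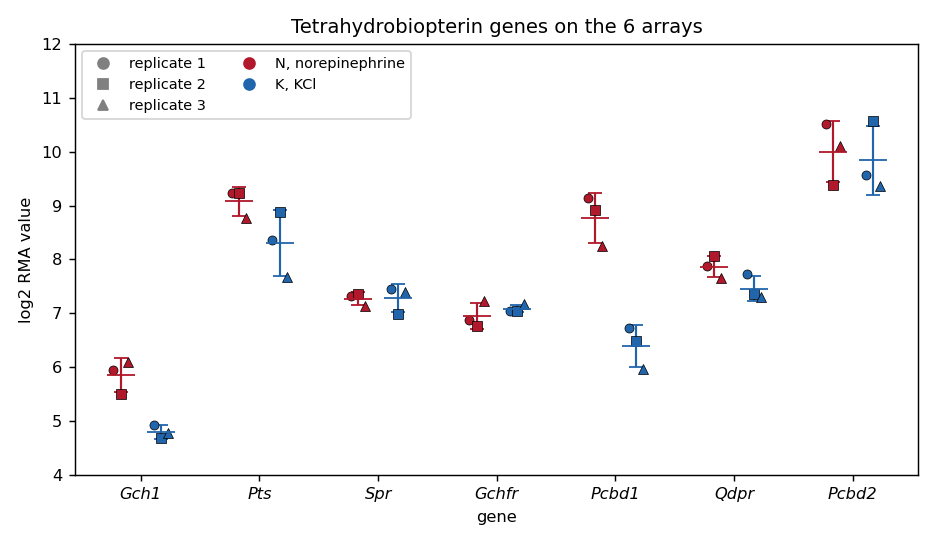
Log2 RMA value (vertical axis) of each of the 7 genes (horizontal axis) on the N arrays (red) and K arrays (blue), with a point per array, the symbol giving the replicate number, a horizontal bar at the mean and whiskers of 1 SD (n = 3). Only Pcbd1 and Gch1 have N arrays that all lie above the K arrays, and heights are not comparable between genes.

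Among the recycling enzymes Pcbd1 stood apart. Its values were 9.15, 8.92 and 8.25 on N replicates 1, 2 and 3, and 6.73, 6.49 and 5.96 on K replicates 1, 2 and 3. The lowest N array lay more than 1 unit above the highest K array, and within each group replicate 3 was the lowest. The means were 8.77 ± 0.47 with N and 6.39 ± 0.40 with K (SD, n = 3 each). The K mean lay near the median over all clusters, 6.34, and K replicate 3 lay below it. The log2FC was 2.38 (standard error 0.26, 95% interval 1.78 to 2.98), a 5.20-fold higher signal with N. It was the 3rd largest log2FC of the 19937 genes, a place known when the family was proposed. With single arrays left out the log2FC stayed between 2.16 and 2.64. It was past the adjusted threshold without N replicate 3 (2.64), but not without N replicate 1 (2.19), N replicate 2 (2.30), K replicate 1 (2.55), K replicate 2 (2.43) or K replicate 3 (2.16). The Pcbd1 gene lies on chromosome 10 of GRCm38 from 61089331 to 61094329.

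Pcbd2, the paralogue with the same dehydratase activity, varied widely within both groups. It read 10.51, 9.39 and 10.10 on the N arrays and 9.57, 10.58 and 9.36 on the K arrays. The highest of the 6 arrays was K replicate 2 and the lowest K replicate 3, and the groups overlapped throughout. The log2FC was 0.16 (standard error 0.36, 95% interval -0.65 to 0.97), and its sign turned without N replicate 1 (-0.10) or K replicate 3 (-0.08). The log2 ratio of Pcbd1 to Pcbd2 within an array was -1.36, -0.46 and -1.85 on the N arrays and -2.84, -4.08 and -3.41 on the K arrays. That ratio depends on the probes of both clusters, and only its shift between arrays is informative. The mean ratio was 2.22 higher with N, from -3.44 ± 0.62 to -1.22 ± 0.70 (SD, n = 3 each). This shift is the log2FC of Pcbd1 minus that of Pcbd2, so the value that chose the family sets most of it, and whether the paralogues differ in their response was not tested.

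Qdpr, which reduces the dehydrated cofactor back to its active form, had a smaller difference. It read 7.87, 8.05 and 7.66 on the N arrays and 7.73, 7.35 and 7.30 on the K arrays. K replicate 1 lay above N replicate 3, so the groups overlapped. The log2FC was 0.40 (standard error 0.16, 95% interval 0.03 to 0.77), and Qdpr did not pass in limma (adjusted p = 0.541).

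In all, 1 of the 7 members, Pcbd1, passed at an adjusted p under 0.05, against 0.155% of all genes tested. The study's methods for its positive set used a log2FC over 1 in size with a P under 0.05. Those P-values came from its own array analysis, restricted to genes with a unique RefSeq match. With the same cut-offs and the unadjusted P of limma over all genes, 2 of the 7 were counted, Pcbd1 and Gch1. The share over all genes was 0.492%. The N arrays lay above all K arrays for the same pair, against 5.78% of all genes, and below all K arrays for 0 members, against 7.55%. An unadjusted P under 0.05 was reached by 4 members, Pcbd1, Gch1, Pts and Qdpr, against 8.54% of all genes. The log2FC was above 0 for 5 members, against 43% of all genes, with a median of 0.40 over the members and -0.03 over all genes. Because the contrast was used to choose the family, nothing is read from these shares.

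**Figure D2:**
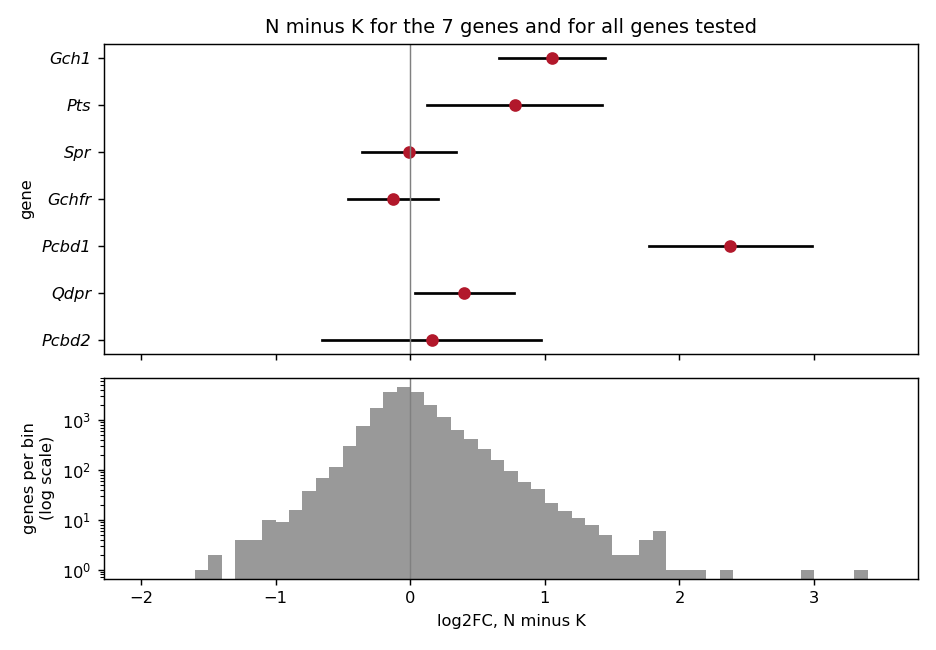
Log2FC of N minus K (horizontal axis) of the 7 genes with 95% limma intervals (top) and a histogram of the log2FC of all 19937 genes tested (bottom, log scale of genes per bin of 0.1). Pcbd1 at 2.38 lies near the upper end of the histogram, and the intervals of Spr, Gchfr and Pcbd2 span 0.

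The members varied in different ways across the arrays. Over the 6 arrays the correlation with Pcbd1 was 0.87 for Gch1, 0.86 for Qdpr, 0.83 for Pts, 0.21 for Pcbd2, 0.04 for Spr and -0.60 for Gchfr (Pearson r, given without a test). These values share the 6 arrays and the contrast between N and K. Within the groups the members did not move as 1 unit. N replicate 3 had the lowest Pcbd1, Pts and Qdpr of the N arrays and the highest Gch1 and Gchfr. Among the K arrays, replicate 2 had the highest Pts and Pcbd2 but neither the highest Pcbd1 nor the highest Gch1.

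The 5 genes whose pattern over the 6 arrays was most like that of Pcbd1, among genes spanning at least 1 log2 unit, were Tagln3 (r = 0.995), Kcnip1 (r = 0.99), Ier3 (r = 0.97), Ppp1r3c (r = 0.97) and Sulf1 (r = 0.97). Tagln3 encodes a neuronal calponin-family protein and read 8.40, 8.18 and 7.87 on the N arrays and at most 7.29 on the K arrays. Kcnip1 encodes a subunit that binds A-type potassium channels and read 8.72, 8.63 and 8.38 with N and 7.19, 6.78 and 6.34 with K. In both genes, as in Pcbd1, replicate 3 was the lowest array of each group. The 5 genes with the most opposite pattern were Cyp2j6 (r = -0.99), Plxnc1, Cacna2d3, Calcrl and Arhgap42 (r from -0.96 to -0.95). These correlations include the difference between N and K and are given as a description only.

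The enzymes that depend on the cofactor were followed in 7 genes. Of Th, Tph1, Tph2, Nos1, Nos2, Nos3 and Agmo, 0 passed in either direction in limma, against 0.155% of all genes. None had an unadjusted P under 0.05, against 8.54% of all genes. The median log2FC was -0.02, with a range from -0.16 to 0.10. Th, the tyrosine hydroxylase gene of catecholamine synthesis, read 6.49, 6.33 and 6.58 on the N arrays and 6.58, 6.25 and 6.53 on the K arrays. The groups overlapped, and its log2FC was 0.01 (standard error 0.14). Tph2, the neuronal tryptophan hydroxylase gene, was dim at 4.31 ± 0.26 with N and 4.31 ± 0.16 with K. Nos1, the neuronal nitric oxide synthase gene, had the lowest log2FC of the list, -0.16 (standard error 0.13), without passing (adjusted p = 0.798 from limma). Of these 7 clusters 4 were dimmer than the median cluster, against 8680 of the 19937 genes, and Th, Nos3 and Agmo were not. In the later steps of amine synthesis, Ddc, Dbh, Pnmt and Aanat had log2FC from -0.16 to -0.02, and Asmt had no value. All 4 were dimmer than the median cluster. Of the 4, 0 passed, against 0.155% of all genes. At an unadjusted P under 0.05 the count was 0, against 8.54% of all genes. With 4 genes these counts say little.

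The supply of GTP, the substrate of Gch1, was followed in 5 genes. A further listed gene, Impdh2, had no value. None passed in limma, against 0.155% of all genes, and 1 had an unadjusted P under 0.05, against 8.54%. The median log2FC was 0.31, against -0.03 over all genes. Nme2, a nucleoside diphosphate kinase gene, had the highest log2FC, 0.64 (standard error 0.32, adjusted p = 0.645 from limma). It read 7.91, 7.86 and 7.12 with N and 6.68, 7.71 and 6.58 with K, and K replicate 2 lay among the N values. Guk1, the guanylate kinase gene, was the member of this list with separate groups, at 7.76, 7.85 and 7.82 with N and 7.53, 7.33 and 7.63 with K. Of all genes, 5.78% had N arrays above all K arrays. Its log2FC was 0.31 (standard error 0.12, adjusted p = 0.541 from limma). Impdh1, an IMP dehydrogenase gene on the route to GTP, had a log2FC of -0.27 (standard error 0.15).

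Among other carbonyl and aldo-keto reductases, a group with enzymes that can stand in for Spr, Cbr1, Cbr3, Akr1b8 and Akr1b10 had log2FC from 0.12 to 0.39, and 0 of 4 passed in limma (0 at an unadjusted P under 0.05). Cbr3 was the highest, at 7.41 ± 0.25 with N and 7.02 ± 0.32 with K. Hnf4a and the forkhead genes Foxa1, Foxa2 and Foxa3, liver-type transcription factors, lay between -0.28 and 0.07 in log2FC. Of these, 0 of 4 passed (0 at an unadjusted P under 0.05). Of all genes 0.155% passed and 8.54% had an unadjusted P under 0.05, so 0 of 4 says little in either list. Over the 5 lists, 24 genes were measured and 0 passed. Impdh2, Akr1b3 (also listed as Akr1b1) and Asmt had no value. An unadjusted P under 0.05 was reached by 1, against 8.54% of all genes, and the median log2FC was 0.01 against -0.03 over all genes.

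**Figure D3:**
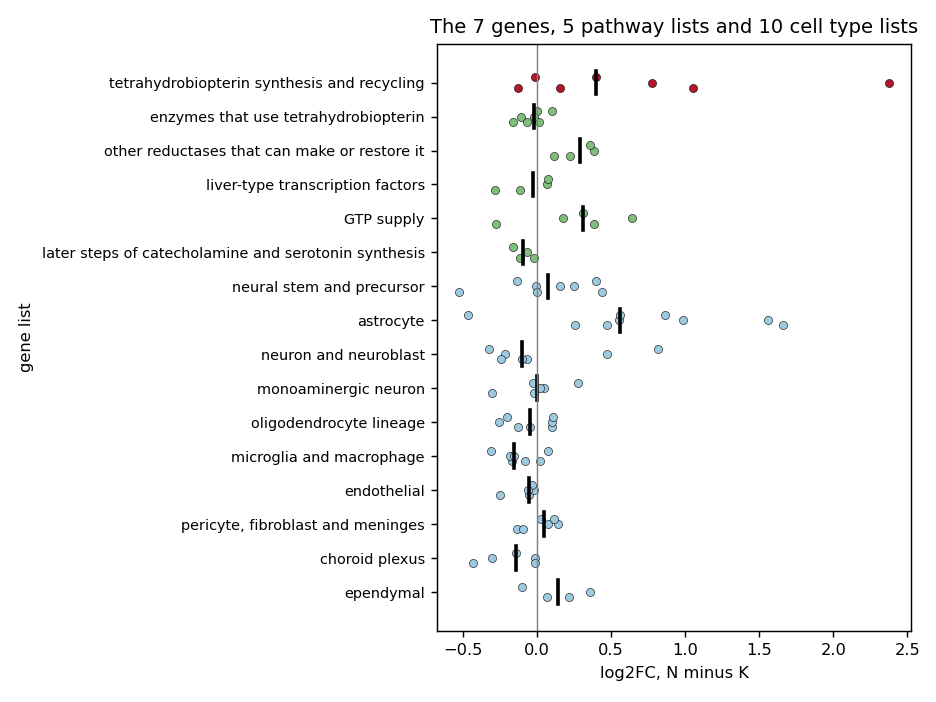
Log2FC of N minus K (horizontal axis) of the 7 tetrahydrobiopterin genes (red), the genes of 5 lists around the pathway (green) and the markers of 10 cell types (blue), with a point per gene and the list median as a black bar. The cofactor-dependent enzymes lie between -0.16 and 0.10, while Gfap at 1.66 is the highest marker.

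The arrays measured whole neurospheres, so fewer cells of a type and less RNA per cell cannot be told apart. Most astrocyte markers had higher values with N. Of 9 astrocyte markers 8 had N arrays above all K arrays, against 5.78% of all genes, and 1, S100b, had a log2FC of -0.47 (standard error 0.30) with overlapping arrays. The median log2FC of the list was 0.56, and the mean level over the list ran from 8.90 to 9.33 on the N arrays and from 8.33 to 8.44 on the K arrays. Gfap, the astrocyte intermediate filament gene, rose by a log2FC of 1.66 (standard error 0.21, adjusted p = 0.0358 from limma), the single marker of 64 to pass, and the water channel gene Aqp4 had 1.56 (standard error 0.24, adjusted p = 0.0738). With any 1 array left out 0 markers passed. Gfap read 7.90, 7.98 and 8.53 on the N arrays and 6.18, 6.47 and 6.79 on the K arrays. The glutamate transporter gene Slc1a2 read 10.33, 10.22 and 10.39 with N and 9.67, 9.40 and 9.28 with K. In both genes the lowest N array lay above the highest K array. The part of astrocyte markers in the differences of Pcbd1 and Gch1 was not tested.

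The other marker lists had 0 genes past the threshold in limma, against 0.155% of all genes, with medians from -0.16 to 0.14. Over all 10 lists 15 of 64 markers had an unadjusted P under 0.05, against 8.54% of all genes, and 7 of the 15 were astrocyte markers. In the precursor list Nes had a log2FC of -0.53 (standard error 0.16) and Vim 0.44 (standard error 0.11), with a mean level over 8 markers of 9.39 to 9.44 on the N arrays and 9.29 to 9.41 on the K arrays. In the neuron list Snap25 had 0.81 (standard error 0.21) and Tubb3 0.47 (standard error 0.16), both with N arrays above all K arrays, against 5.78% of all genes. Map2 had -0.32 (standard error 0.11) with N arrays below all K arrays, against 7.55% of all genes. None of these passed. The log2FC was below 0 for 5 of the 7 neuron markers (median -0.10), against 11372 of the 19937 genes. Of the 7, 5 were dimmer than the median cluster, against 8680 of the 19937 genes. Monoaminergic neurons use tetrahydrobiopterin to make transmitters. Of their 6 measured markers, 5 were dimmer than the median cluster, against 8680 of the 19937 genes. The mean level over the 6 ran from 5.98 to 6.07 with N and from 5.84 to 6.15 with K. The log2FC was above 0 for 3 of the 6, against 43% of all genes. The marker above the median cluster was Nr4a2, at 7.46 ± 0.29 with N and 7.18 ± 0.31 with K (SD, n = 3 each). Its log2FC was 0.28 (standard error 0.20), with overlapping arrays. The norepinephrine transporter gene Slc6a2 was among the dimmer 5, at 5.84 ± 0.06 with N and 6.14 ± 0.18 with K. The vesicular transporter gene Slc18a2 read 5.25 ± 0.07 and 5.27 ± 0.06. The oligodendrocyte lineage, in which Qdpr is also known to be expressed, had a median log2FC of -0.05 over 7 markers.

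**Figure D4:**
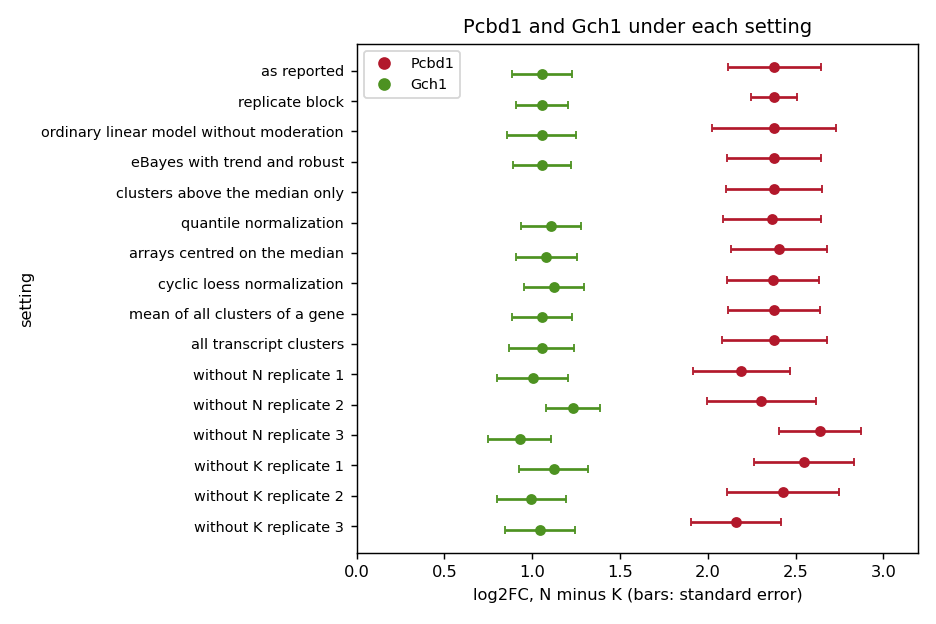
Log2FC of N minus K (horizontal axis, bars of 1 standard error) of Pcbd1 (red) and Gch1 (green) as reported and under each alternative setting (vertical axis). Pcbd1 stays between 2.16 and 2.64 and Gch1 between 0.93 and 1.23, and Gch1 has no value where dim clusters were removed.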

How the data were processed

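The deposited log2 values were made by the authors from scanned Affymetrix Mouse Gene 1.0 ST images in Partek Genomics Suite with RMA, which corrects the background, normalizes between arrays and gives 1 value per transcript cluster. Versions and settings are not given in the sources used here. RMA compresses differences among dim clusters. Columns were matched to samples by their labels.

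Clusters with exactly 1 symbol in the platform annotation (21640 of 34760) were reduced to 19937 genes by the highest mean over the 6 arrays. The N minus K difference was fitted per gene by limma 3.58.1 under R 4.3.3 (lmFit and eBayes without covariates), using Benjamini-Hochberg adjustment over all genes and a threshold of 0.05. With 3 arrays per group the number of arrays limits the precision. Positions and promoters come from RefSeq (GRCm38.p6), where 7 of 7 members matched by gene ID. In 5 data sets simulated for this comparison (19937 genes, 200 of them changed), 95.6% of changes of 2 log2 units and 64.2% of changes of 1 were recovered. A mean of 5.4 unchanged genes was called. The simulated errors were normal and independent between genes, and 31 genes passed on the real arrays, so these shares may not hold for them.

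The members, lists and tests were chosen with earlier results of these data known. Genes named are the members, list genes with a log2FC over 0.5 in size or needed for a count, and cell type markers past the threshold. Markers with the largest differences were named in the precursor, astrocyte, neuron and monoaminergic lists only. The 5 genes most like and most unlike Pcbd1 (at least 1 log2 unit of span) were also named. Sox2 and Dcx were named outside these rules, to describe the cultures. Nos1, Th, Tph2, Guk1, Impdh1, S100b, Slc1a2, Map2, Cbr3, Slc6a2 and Slc18a2 were added after their values were seen. Alternatives were other normalizations, variance models, filters, cluster choices, the replicate number as a block, and each array left out. Plots used matplotlib 3.10.9 (Python 3.11.15).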

Additional observations from a re-analysis of the deposited data

How the results depend on the processing

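The log2FC of Pcbd1 kept its direction in 15 of 15 alternatives and passed the adjusted threshold in 7. It was past it with the replicate number as a block (2.38), and not in an ordinary linear model without moderation (2.38, adjusted p = 0.473), with arrays centred on the median (2.41, adjusted p = 0.0505) or with all transcript clusters tested (2.38, adjusted p = 0.285); leaving out 1 array gave 2.16 to 2.64. The adjusted p ran from 0.00224 to 0.473 over the alternatives. Gch1 kept its direction in 14 of 14 alternatives and passed in 0, and Pts, Qdpr and Gchfr kept theirs in 15 of 15. With 1 array left out, Pcbd2 ran from -0.10 to 0.53 and Spr from -0.16 to 0.079. Pcbd2 turned sign without N replicate 1 (-0.10) or K replicate 3 (-0.08). Spr turned sign with arrays centred on the median (0.018) and without N replicate 3 (0.06), K replicate 1 (0.079) or K replicate 3 (0.05).

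Of all genes 31 passed (24 higher and 7 lower with N). The count was 1 without moderation, 12 with quantile (7 higher, 5 lower) and 12 with cyclic loess normalization (8 higher, 4 lower), 3 with arrays centred on the median, 0 with all transcript clusters (2174 clusters at an unadjusted P under 0.05 in limma), 0 to 21 with 1 array left out, and 98 by a log2FC over 1 with an unadjusted P under 0.05. Members called were 0 without moderation, with centred arrays and with all clusters, 0 to 1 with 1 array left out, and 2 by the log2FC rule, which also counted 1 of the members other than Pcbd1 in place of 0. The pathway lists had 0 calls under every alternative run. Of the cell type markers, 1 passed; 2 did with the replicate block and by the log2FC rule, and 0 without moderation, with quantile, centred or cyclic loess values, with all clusters, or with any 1 array left out. The block changed the calls of no member. Same-numbered arrays deviated together only weakly (r = 0.04, 0.04 and 0.12 across genes), so the numbers are not taken to pair the arrays. The causes of these changes were not tested. Dim signal limits Gch1, whose cluster was removed by the filter on dim clusters.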
